A study of Mus musculus with 18 samples.

Results

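Blood capillaries run along every skeletal myofiber, and a fiber that has been freed from its muscle by enzyme digestion can still carry pieces of them. The genes described here are 10 markers of endothelial cells, the cells that line blood vessels: Kdr, Flt1, Tek, Tie1, Eng, Pecam1, Cdh5, Cldn5, Emcn and Vwf. They were chosen by name, as a check for capillary RNA among the nuclei and in the cytoplasm of mouse myofibers. All 10 were on the array, on 12 of its 55681 probe names that are no controls, and on 22 of its 59305 spots of that kind.

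The samples came from CD1 female mice of 3 months, with no treatment or altered gene. The muscles were soleus, tibialis anterior (TA) and extensor digitorum longus (EDL), which were digested with collagenase, and intact fibers were picked under the microscope, washed and pooled by 5 to 10. Each pool was broken in a Triton buffer, and a low-speed spin divided it into a pellet of nuclei and a supernatant, called cytoplasm. The 6 groups were EDL cytoplasm, EDL nuclei, soleus cytoplasm, soleus nuclei, TA cytoplasm and TA nuclei, with 3 arrays in each and 18 in all, and RNA of every sample was hybridised in a single colour. The pools of EDL and soleus came from 2 mice each, the same pair of mice for the same replicate number, whereas TA was paired in part. TA cytoplasm 1 and 2 shared mouse 5 and held mouse 1 and mouse 2 besides, which alone gave TA nuclei 1 and TA nuclei 2. TA cytoplasm 3 came from mouse 9 and TA nuclei 3 from mouse 3, which was also in the EDL and soleus pools numbered 1, and mouse 5 was in those numbered 2. The groups hold no sample of purified endothelial cells and none of fibers known to be free of them.

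Endothelial cells join into a tube through adherens and tight junctions, grow and survive on vascular endothelial growth factor (VEGF), and keep the vessel quiet and closed through angiopoietin signalling. Kdr and Flt1 encode the VEGF receptors 2 and 1, and Tek encodes the angiopoietin receptor Tie2, with Tie1 as its partner receptor. Eng encodes endoglin, a co-receptor for bone morphogenetic proteins. Pecam1 and Cdh5 encode the adhesion proteins CD31 and VE-cadherin, Cldn5 a tight junction protein, Emcn a mucin-like protein of capillary and venous cells, and Vwf the clotting factor that endothelial cells store and release. Muscle fibers are not known as a main source of any of these proteins.

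A probe of the array is a stretch of 60 bases of the sense strand. Tek and Tie1 encode related proteins and their probes resemble each other, so both sequences are shown to let their likeness be judged. With base 1 of the Tek probe set under base 4 of the Tie1 probe, the alignment without gaps that gave the most identical bases, 39 of 57 bases were identical (68.4%, in capitals), and the longest identical run was 8 bases. Pecam1, the most used of the markers, is shown beside them in lower case only.
Tek probe, chr4:94540624-94540683, plus strand: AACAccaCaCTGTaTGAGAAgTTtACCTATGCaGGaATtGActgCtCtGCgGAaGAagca
Tie1 probe, chr4:118144132-118144191, minus strand: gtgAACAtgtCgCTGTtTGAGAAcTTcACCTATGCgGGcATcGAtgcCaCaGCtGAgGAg
Pecam1 probe, chr11:106540864-106540923, minus strand: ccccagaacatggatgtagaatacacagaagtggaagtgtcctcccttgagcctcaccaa

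Kdr and Vwf had 2 probe names each, which did not give the same result, and the opening 30 bases of these 4 probes show that they read different stretches of the transcripts. The pair of Kdr probes lay 1086 bases apart both on the genome and along the annotated transcript. The pair of Vwf probes lay 94445 bases apart on the genome, and the array's annotation ties the second of them to a cDNA clone from dendritic cells and not to the reference mRNA. Coordinates are those of the array's annotation in the mm9 build, and no other probe of the array shared 30 or more bases in a row with any of the 12.
Kdr, brighter probe, chr5:76329309-76329368, minus strand: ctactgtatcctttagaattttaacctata
Kdr, second probe, chr5:76330395-76330454, minus strand: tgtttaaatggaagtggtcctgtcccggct
Vwf, brighter probe, chr6:125636551-125636610, plus strand: caagtgaggcctgtgcagctacagcggatt
Vwf, second probe, chr6:125542106-125542165, plus strand: tagttaaacagaacaacagtgaagggcgga

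The remaining markers had 1 probe each on mm9. The Flt1 probe was at chr5:148373791-148373850 and the Cdh5 probe at chr8:106668159-106668218. The Cldn5 probe was at chr16:18778046-18778105, the Eng probe at chr2:32537268-32537327 and the Emcn probe at chr3:137086389-137086448. Which exon or untranslated region they read was not determined here, and a probe of this kind does not tell a spliced from an unspliced transcript.

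Endothelial transcripts were present in both fractions of all 3 muscles. Each of the 12 probes was called well above background by the scanner software on 18 of 18 arrays, and none was saturated on any, whereas the share of all spots called well above background ran from 58.6% to 71.2% per array. The labelled tissue was present as well, since 16 of 16 genes of the contractile and energy apparatus of myofibers were well above background on every array. Within a group, arrays correlated at 0.985 to 0.992 in nuclei and at 0.906 to 0.971 in cytoplasm (Pearson's r across probes, a description). On the first principal component, which held 53.4% of the variance, soleus cytoplasm 2 stood apart at -5.86, while the remaining cytoplasm arrays lay between -151.1 and -78.9 and the nuclei between 66.7 and 113.7. Slide 1 held the cytoplasm of EDL and soleus and slide 2 their nuclei, so in these muscles fraction and slide cannot be told apart. Slide 1 also held TA cytoplasm 1, slide 3 held TA cytoplasm 3, and slide 4 held TA cytoplasm 2 together with the TA nuclei, with slides 3 and 4 scanned on 1 day.

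All 10 markers were higher in nuclei than in cytoplasm when the 3 muscles were averaged. The differences on the log2 scale, nuclei minus cytoplasm by the brightest probe of a gene, ran from 0.38 for Eng to 1.50 for Tie1, with a median of 0.98, and passed an adjusted p of 0.05 for 10 of 10 (limma over all probes). The count was 8 with slide as a random block, and 6 when the nuclear arrays of a muscle, which correlated at 0.985 to 0.992, were averaged to 1 sample. Of all 40541 probes tested, 31.3% were higher and 38.6% lower in nuclei by the same rule, and of the 19868 tied to a reference mRNA 41.7% were higher, so a rise in nuclei was common on this array. In either direction 28331 of 40541 probes were called as reported. With slide as a random block 14221 of 35528 were, and with the nuclear arrays averaged 16218 of 40541. The median over all probes tested was -0.08, and over the probes of reference mRNAs 0.24. For each marker the means of the 3 nuclear groups ranked above those of the 3 cytoplasmic groups, and TA cytoplasm ranked lowest for 10 of 10. How many of all probes had these orders was not counted. In whole samples like these, fewer cells of a type and less RNA per cell cannot be told apart.

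**Figure D1:**
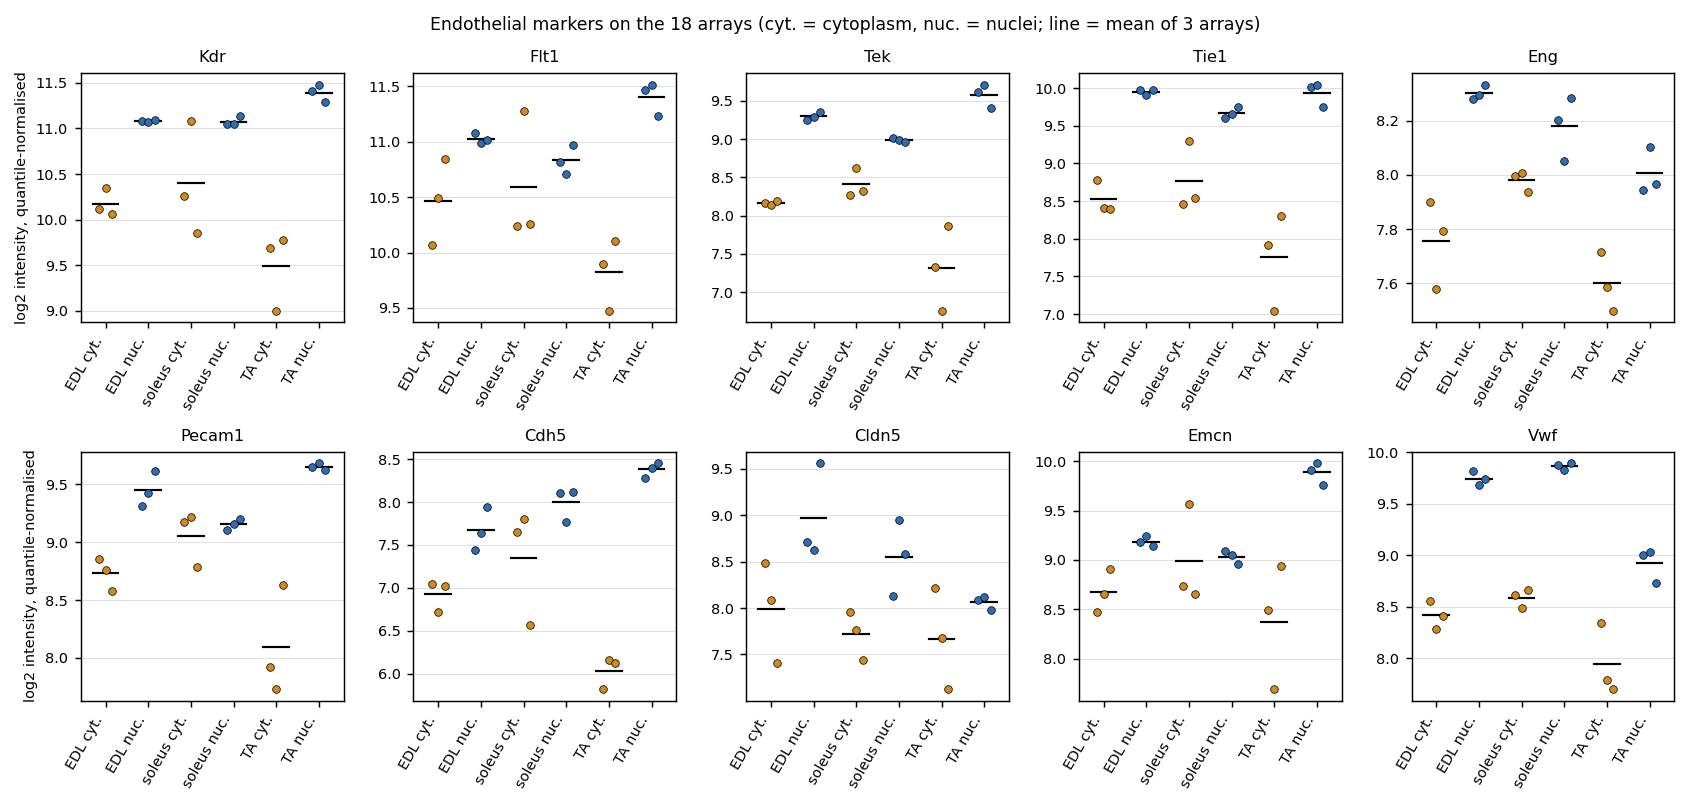
Each panel plots the quantile-normalised log2 intensity (vertical axis) of the brightest probe of a gene on the 18 arrays by group (horizontal axis), with cytoplasm in orange, nuclei in blue and a line at the mean of 3 arrays. The nuclear means lie above the cytoplasmic means of the same muscle in all 10 panels, and TA cytoplasm has the lowest mean of the 6 groups in each. The share of all probes with such an order was not counted.

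Kdr, the main signalling receptor for VEGF, read 10.12, 10.35 and 10.06 in EDL cytoplasm and 11.08, 11.07 and 11.09 in EDL nuclei by its brighter probe. The soleus values were 10.26, 11.08 and 9.86 in cytoplasm and 11.04, 11.05 and 11.13 in nuclei. The TA values were 9.69, 9.00 and 9.77 in cytoplasm and 11.41, 11.48 and 11.28 in nuclei. Nuclei were above cytoplasm without overlap in EDL and TA, and in soleus the array of cytoplasm 2 reached the nuclear range. The difference was 0.90 ± 0.26 in EDL (SE, n = 3 and 3, adjusted p = 0.011, limma), 0.67 ± 0.26 in soleus (adjusted p = 0.0531) and 1.90 ± 0.26 in TA (adjusted p = 4.17e-05), a fold of 1.87, 1.59 and 3.74. The brighter probe was spotted 10 times on each array, and the SD between those spots was 0.036 to 0.096.

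The second Kdr probe, 1086 bases away, gave no called difference. Its values were 10.55, 10.44 and 10.51 in EDL cytoplasm and 10.51, 10.61 and 10.40 in EDL nuclei. They were 10.33, 10.25 and 10.49 in soleus cytoplasm and 10.19, 10.16 and 10.35 in soleus nuclei, and 10.93, 10.65 and 10.15 in TA cytoplasm and 10.29, 10.39 and 10.41 in TA nuclei. The fractions overlapped in every muscle. The difference over the 3 muscles was -0.11 ± 0.11 (SE, adjusted p = 0.36, limma), with a 95% confidence interval of -0.34 to 0.11 that does not reach the 1.16 ± 0.15 of the brighter probe. The nuclear rise of Kdr was thus read by only 1 of its 2 probes. In TA the second probe was called lower in nuclei, at -0.43, when TA cytoplasm 3 was left out. Without scaling between arrays the second probe turned to 0.67 over the muscles and to 1.06 in soleus and above 0 in TA, while the median of all probes moved from -0.08 to 0.42 over the muscles and from -0.01 to 0.96 in soleus.

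Flt1 binds VEGF more tightly than Kdr and is known as a trap for it. Its values were 10.07, 10.49 and 10.84 in EDL cytoplasm against 10.98 to 11.08 in EDL nuclei, and 9.47 to 10.11 in TA cytoplasm against 11.23 to 11.52 in TA nuclei. In soleus cytoplasm the arrays read 10.24, 11.28 and 10.26, so that cytoplasm 2 was above all soleus nuclei, which spanned 10.71 to 10.97. Flt1 rose in TA nuclei by 1.58 ± 0.27 (adjusted p = 0.000217, limma), a fold of 2.99, whereas the differences of 0.56 ± 0.27 in EDL (adjusted p = 0.103) and 0.24 ± 0.27 in soleus (adjusted p = 0.503) did not pass. Without soleus cytoplasm 2, both the EDL and the soleus difference of Flt1 were called, at 0.56 and 0.58.

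Tek and Tie1, the pair of angiopoietin receptors, were higher in nuclei in each muscle and had the largest differences over the muscles among the 10, 1.32 ± 0.13 and 1.50 ± 0.16 (adjusted p = 3.02e-07 and 9.45e-07, limma). Tek read 8.17, 8.14 and 8.19 in EDL cytoplasm and 9.25, 9.29 and 9.35 in EDL nuclei. In soleus it read 8.28, 8.63 and 8.32 in cytoplasm and 9.01, 8.98 and 8.96 in nuclei. In TA it read 7.33, 6.76 and 7.87 in cytoplasm and 9.62, 9.71 and 9.41 in nuclei. No cytoplasm array of Tek reached a nuclear array of its own muscle. Tek rose by 1.13 ± 0.22 in EDL, by 0.58 ± 0.22 in soleus (adjusted p = 0.0482, limma) and by 2.26 ± 0.22 in TA, a fold of 2.19, 1.49 and 4.79. The soleus call of Tek was lost when any of 14 of the 18 arrays was left out, namely all 9 nuclear arrays, the 3 EDL cytoplasm arrays, and soleus cytoplasm 1 or 3, with differences of 0.51 to 0.59.

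Tie1 read 8.78, 8.40 and 8.39 in EDL cytoplasm and 9.91 to 9.97 in EDL nuclei. It read 8.46, 9.30 and 8.54 in soleus cytoplasm and 9.60 to 9.75 in soleus nuclei, and 7.92, 7.04 and 8.31 in TA cytoplasm and 9.75 to 10.05 in TA nuclei. The fractions did not overlap in any muscle, and soleus cytoplasm 2 was the closest to the nuclei. Tie1 rose by 1.43 ± 0.28 in EDL, by 0.90 ± 0.28 in soleus (adjusted p = 0.0189, limma) and by 2.18 ± 0.28 in TA. Without soleus cytoplasm 1, soleus cytoplasm 3 or soleus nuclei 3 the soleus difference was 0.75, 0.79 or 0.86 and was not called.

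Eng, the co-receptor for bone morphogenetic proteins, had the smallest difference of the 10, 0.38 ± 0.09 over the muscles (adjusted p = 0.000889, limma), a fold of 1.31. Its mean was 7.76 ± 0.16 in EDL cytoplasm and 8.30 ± 0.03 in EDL nuclei (SD, n = 3). It was 7.98 ± 0.04 in soleus cytoplasm and 8.18 ± 0.12 in soleus nuclei, and 7.60 ± 0.11 in TA cytoplasm and 8.01 ± 0.09 in TA nuclei (SD, n = 3). Nuclei lay above cytoplasm without overlap in all 3 muscles, although only the EDL difference of 0.55 and the TA difference of 0.41 passed (adjusted p = 0.00709 and 0.0304). The TA call of Eng was lost without TA cytoplasm 2 or 3 or any of the TA nuclei, with differences of 0.36 to 0.44, and also with the replicate number as a block.

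The junction genes did not move alike. Pecam1, an adhesion protein at the contacts of endothelial cells that blood cells carry too, read 8.86, 8.76 and 8.58 in EDL cytoplasm and 9.32, 9.43 and 9.61 in EDL nuclei. In TA it read 7.92, 7.73 and 8.63 in cytoplasm and 9.65, 9.69 and 9.62 in nuclei. In soleus it read 9.17, 9.22 and 8.78 in cytoplasm and 9.11, 9.16 and 9.20 in nuclei, so that the fractions overlapped. Pecam1 rose in nuclei by 0.72 ± 0.21 in EDL (adjusted p = 0.0116, limma) and by 1.56 ± 0.21 in TA (adjusted p = 3.64e-05). The soleus difference was 0.10 ± 0.21 (adjusted p = 0.739), with a 95% confidence interval of -0.35 to 0.55.

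Cdh5, the cadherin of endothelial adherens junctions, had the largest difference of any marker within a muscle. It read 5.82, 6.16 and 6.13 in TA cytoplasm and 8.28, 8.40 and 8.46 in TA nuclei, a difference of 2.34 ± 0.27 and a fold of 5.07 (adjusted p = 9.38e-06, limma). It read 7.04, 6.71 and 7.02 in EDL cytoplasm and 7.44, 7.64 and 7.94 in EDL nuclei. In soleus it read 7.66, 7.8 and 6.57 in cytoplasm and 8.10, 7.77 and 8.12 in nuclei. EDL nuclei were above EDL cytoplasm without overlap by 0.75 ± 0.27 (adjusted p = 0.0315), and the soleus fractions overlapped, with 0.65 ± 0.27 (adjusted p = 0.063). The EDL call was lost with the replicate block and without EDL cytoplasm 2 or 3 or EDL nuclei 2 or 3, at 0.61 to 0.79. The soleus difference was called without soleus cytoplasm 1 or 2, at 0.81 and 0.88.

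By the brightest probe of a gene, Cldn5, the tight junction protein, was the only marker for which the TA fractions overlapped. Cldn5 read 8.21, 7.67 and 7.12 in TA cytoplasm and 8.09, 8.12 and 7.98 in TA nuclei. It read 8.48, 8.08 and 7.41 in EDL cytoplasm against 8.71, 8.63 and 9.57 in EDL nuclei, and 7.96, 7.76 and 7.44 in soleus cytoplasm against 8.13, 8.94 and 8.59 in soleus nuclei. The SD of Cldn5 within a group ran from 0.07 to 0.54. Cldn5 rose in EDL nuclei by 0.98 ± 0.34 (adjusted p = 0.0263, limma), and the differences were 0.83 ± 0.34 in soleus (adjusted p = 0.0592) and 0.39 ± 0.34 in TA (adjusted p = 0.341). The EDL call was lost without EDL cytoplasm 3 or EDL nuclei 3, at 0.68 each. The soleus difference was called without EDL cytoplasm 3, EDL nuclei 3, soleus nuclei 1 or TA cytoplasm 1 or 3, at 0.83 to 1.04.

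Emcn, the mucin-like protein of capillaries and veins, rose in TA nuclei by 1.52 ± 0.28 (adjusted p = 0.000425, limma), from 8.49, 7.69 and 8.94 in cytoplasm to 9.91, 9.99 and 9.76 in nuclei. In EDL the cytoplasm read 8.47, 8.65 and 8.91 and the nuclei 9.14 to 9.24, without overlap but with a difference of 0.51 ± 0.28 that did not pass (adjusted p = 0.151). In soleus the cytoplasm read 8.74, 9.57 and 8.65 and the nuclei 8.96 to 9.09, and cytoplasm 2 was again above every nuclear array. The soleus difference was 0.05 ± 0.28 (adjusted p = 0.908), with a 95% confidence interval of -0.55 to 0.65.

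Vwf, the clotting factor that endothelial cells store, was called higher in nuclei in each muscle by its brighter probe, as were Tek and Tie1. It read 8.56, 8.28 and 8.42 in EDL cytoplasm and 9.82, 9.68 and 9.74 in EDL nuclei. In soleus it read 8.61, 8.49 and 8.66 in cytoplasm and 9.88, 9.83 and 9.90 in nuclei, and in TA 8.34, 7.79 and 7.70 in cytoplasm and 9.01, 9.03 and 8.73 in nuclei. The fractions did not overlap in any muscle. The differences were 1.33 ± 0.18, 1.28 ± 0.18 and 0.98 ± 0.18 in EDL, soleus and TA, and all 3 passed (adjusted p = 3.85e-05, 7.61e-05 and 0.00037, limma).

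The second Vwf probe, the one annotated to the dendritic cell clone, moved the other way. The probes were nearly equal in brightness, with a mean over the 18 arrays of 8.91 for the brighter and 8.90 for the second. It read 9.37, 9.14 and 9.20 in EDL cytoplasm against 8.65 to 8.81 in EDL nuclei. It read 9.41, 9.00 and 9.56 in soleus cytoplasm against 8.49 to 8.50 in soleus nuclei, and 9.63, 9.07 and 8.70 in TA cytoplasm against 8.29 to 8.57 in TA nuclei. Cytoplasm was above nuclei without overlap in each muscle. Nuclei minus cytoplasm was -0.67 ± 0.12 over the muscles (adjusted p = 0.000182, limma), with -0.50 in EDL (adjusted p = 0.0684), -0.83 in soleus (adjusted p = 0.00676) and -0.69 in TA (adjusted p = 0.0133), though without scaling between arrays it turned above 0 in EDL and soleus and to 0.094 over the muscles, with 0.41 in soleus, still below the median of all probes there. The TA call was lost without TA cytoplasm 1 or TA nuclei 3, at -0.45 and -0.62, and within the shared scan day, at -0.45. The EDL difference was called without soleus cytoplasm 2, TA cytoplasm 1 or TA cytoplasm 3, at -0.50 each. With the mean of both Vwf probes in place of the brighter probe, the differences were 0.41, 0.23 and 0.14 in EDL, soleus and TA and none of these 3 passed, while the 0.26 over the muscles did.

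**Figure D2:**
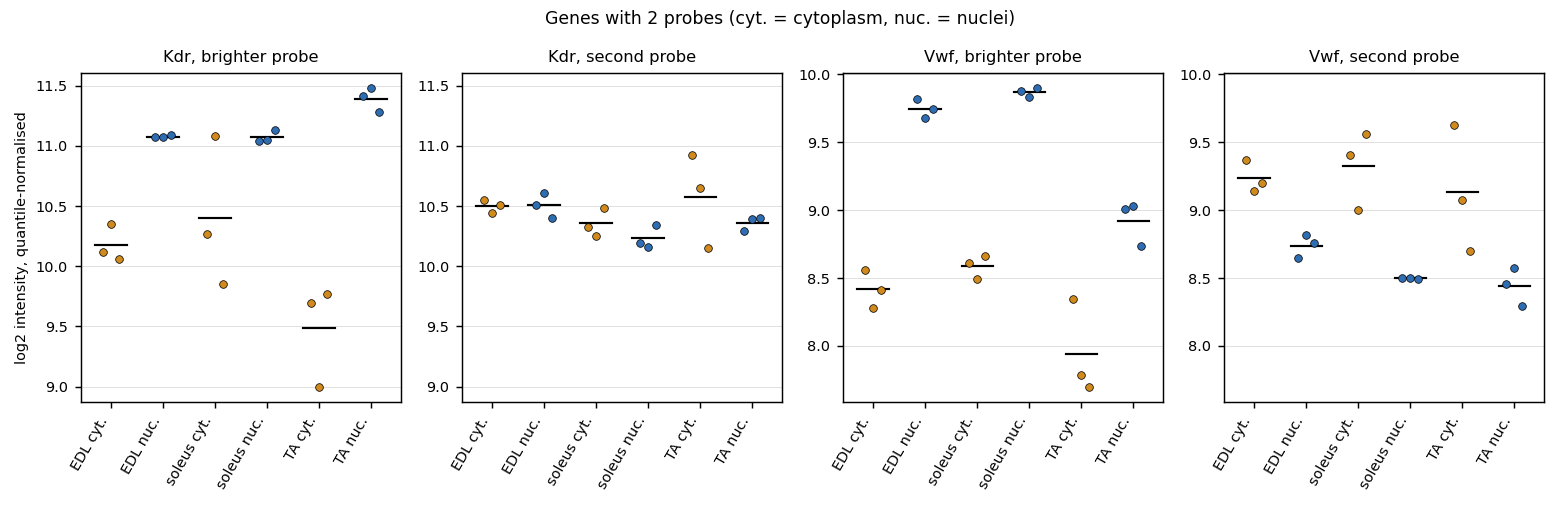
The panels plot the quantile-normalised log2 intensity (vertical axis) of both probes of Kdr and of Vwf on the 18 arrays by group, with cytoplasm in orange, nuclei in blue and a line at the mean of 3 arrays. The brighter probes sit higher in nuclei, the second Kdr probe overlaps between fractions, and the second Vwf probe sits higher in cytoplasm in each muscle (without scaling between arrays the second Kdr probe turns to 0.67 and the second Vwf probe to 0.094 over the muscles).

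By muscle, the markers called higher in nuclei were 8 of 10 in EDL, where 20.1% of all 43669 probes tested were, 3 of 10 in soleus against 18.7%, and 9 of 10 in TA against 19.2%. With slide as a random block the counts were 3, 1 and 9 in EDL, soleus and TA, and with the nuclear arrays of a muscle averaged to 1 sample they were 0, 0 and 5. In either direction, 5570, 3328 and 19996 of all 35528 probes were called with the slide block. With the nuclear arrays averaged, 3199 of 43669, 1425 of 43620 and 4448 of 43699 were. Among probes of reference mRNAs the shares higher without these changes were 26.2%, 23.4% and 26.8%. None of the 10 was called lower in any muscle by its brightest probe, where 26.6%, 21.7% and 33.5% of all probes were in EDL, soleus and TA, and all 10 differences were above 0 in each. The second Vwf probe, nearly as bright, was called lower in soleus and TA. The marker medians were 0.83, 0.61 and 1.57 in EDL, soleus and TA, beside medians of -0.05, -0.01 and -0.22 over all probes. Fractions that did not overlap, with nuclei above, were found for 10 of 10 markers in EDL (32% of all probes), 5 of 10 in soleus (28.5%) and 9 of 10 in TA (22.6%). The soleus share of 3 in 10 is near its background share, and the 3 were Tek, Tie1 and Vwf.

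**Figure D3:**
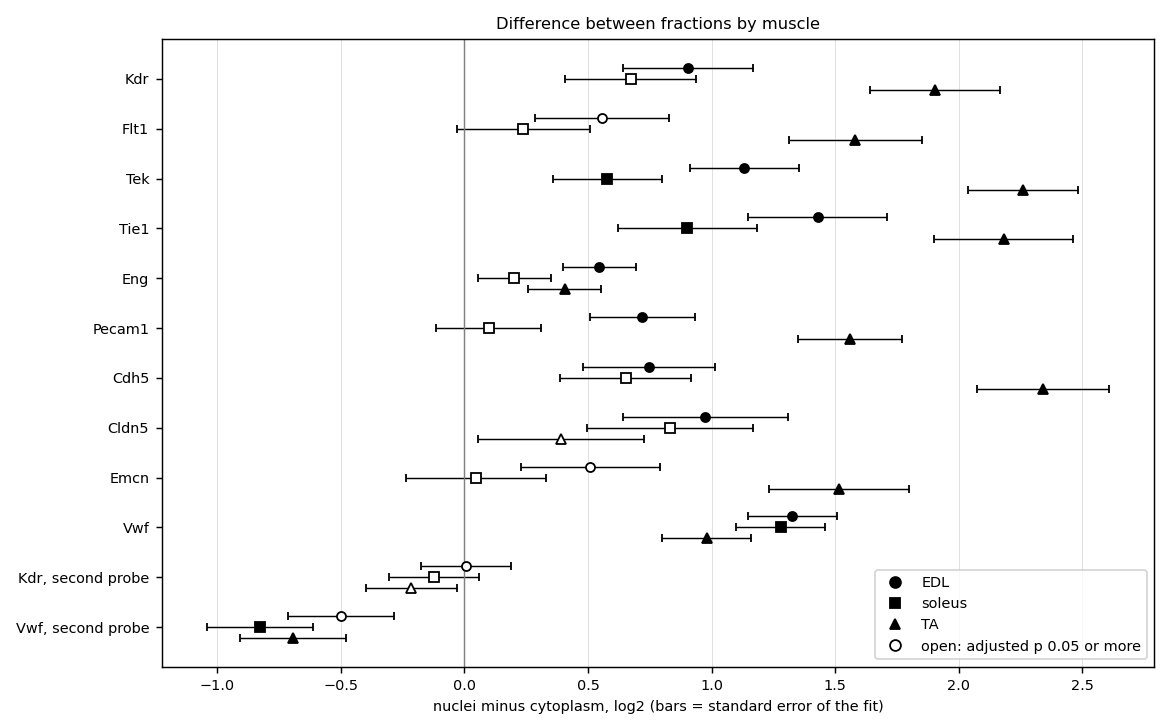
The plot shows nuclei minus cytoplasm on the log2 scale (horizontal axis) for the 12 probes (vertical axis), with a circle for EDL, a square for soleus and a triangle for TA, bars of 1 standard error, and open symbols for an adjusted p of 0.05 or more. The 10 brightest probes lie above 0 in each muscle, from 0.05 for Emcn in soleus to 2.34 for Cdh5 in TA, and the second probes of Kdr and Vwf lie near or below 0 (both turn above 0 over the muscles without scaling between arrays).

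The soleus count depended on single arrays, first on soleus cytoplasm 2, the array that stood apart from the other cytoplasm arrays. That array was the highest of its group for 8 of 10 markers, the lowest for Vwf and between the others for Cldn5, and for 5 of 10 it reached the range of the soleus nuclei. The mean of the 10 markers, each centred on its own mean, was 0.16 on this array, against -0.21 and -0.45 on the other soleus cytoplasm arrays and 0.35 to 0.44 in soleus nuclei. Without it 6 of 10 markers were called in soleus, with differences of 1.01 for Kdr, 0.88 for Cdh5 and 0.58 for Flt1 besides Tek, Tie1 and Vwf. The count was 1 without soleus cytoplasm 3 or soleus nuclei 3. It was 2 without soleus cytoplasm 1, soleus nuclei 2, EDL cytoplasm 1 or 2, EDL nuclei 1 or 2 or any of the TA nuclei. It was 4 without TA cytoplasm 2 and 5 without TA cytoplasm 1 or 3. How many of all probes were called in soleus with an array left out was not counted. At an unadjusted p under 0.05 it was 6, a threshold at which the share of all probes was not counted. With the replicate number as a block, which pairs EDL and soleus samples by mouse, the counts were 7, 2 and 8 in EDL, soleus and TA. Cdh5 in EDL, Tek in soleus and Eng in TA were not called with it. Over all probes, in either direction, 19749 of 43669, 16915 of 43620 and 22570 of 43699 were called with the block. The block also joined TA samples by number, though TA cytoplasm 3 and TA nuclei 3 shared no mouse.

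TA was the only muscle in which a slide or a scan day held both fractions. Against TA cytoplasm 2 alone, the array on the slide of the nuclei, the median difference was 2.07, with Tie1 at 2.90, Tek at 2.82, Kdr at 2.39 and Cdh5 at 2.22. That lone array had the lowest marker mean of the 18, at -1.26, against -0.82 and -0.74 on TA cytoplasm 1 and 3. The larger differences within the slide thus rest on the lowest array. Within the shared scan day, with TA cytoplasm 2 and 3, 9 of 10 were called and the median was 1.60, with Tek at 2.27, Tie1 at 2.26, Cdh5 at 2.23 and Kdr at 2.01. In that fit 21687 of all 42129 probes were called in either direction, and the median over all probes was -0.25. Over all TA arrays the median was 1.57. By the brightest probes, the smallest differences within the slide were those of Cldn5, at 0.39, and Eng, at 0.42. For EDL and soleus no such value can be had. The fit with slide as a random block, with its counts of 3, 1 and 9, took the 35528 probes with values on all arrays.

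**Figure D4:**
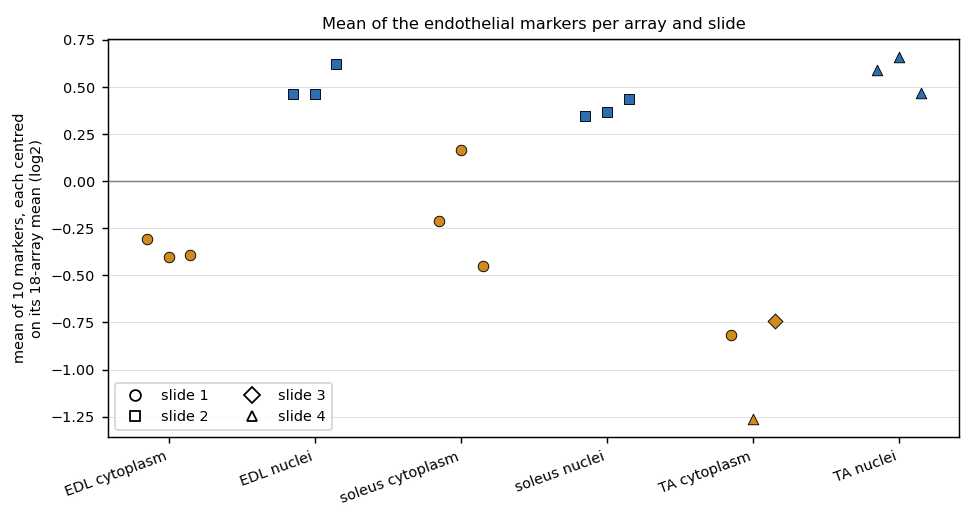
The plot shows the mean of the 10 markers per array, each marker centred on its mean over the 18 arrays (vertical axis, log2), by group (horizontal axis), with the shape of a symbol for the slide and its colour for the fraction. On slide 4 the TA nuclei lie at 0.47 to 0.66 and TA cytoplasm 2 at -1.26, the lowest of the 18 arrays, and soleus cytoplasm 2 lies at 0.16, above the other cytoplasm arrays.

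Unequal differences among the 3 muscles were tested for as an interaction of muscle and fraction. It was called for 3 of 10 markers, Tek (adjusted p = 0.0293), Cdh5 (0.0433) and Pecam1 (0.048, limma's moderated F test), where 1.6% of all 40541 probes were called, and 7 of 10 had an unadjusted p under 0.05. How many of all probes reached that unadjusted threshold was not counted, here or for the counts that follow. The 3 genes had larger differences in TA than in soleus, by 1.68 ± 0.31 for Tek, 1.69 ± 0.38 for Cdh5 and 1.46 ± 0.30 for Pecam1 (adjusted p = 0.0119, 0.0263 and 0.0182, with 3.39% of probes called). No marker was called for a larger or smaller difference in TA than in EDL (limma, 0.356% of probes, 6 of 10 markers at an unadjusted p under 0.05) or in soleus than in EDL (0.0286% of probes, 0 of 10). These calls were fragile. Without any 1 of the 9 nuclear arrays, and with the replicate block, 0 markers were called. Without EDL cytoplasm 1 or 3 or TA cytoplasm 2 the count was 1, and without EDL cytoplasm 2, soleus cytoplasm 1 or 2 or TA cytoplasm 1 it was 2. Without TA cytoplasm 3 it was 4.

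Few markers differed in level between muscles. Between soleus, a slow and well supplied muscle, and EDL, a fast muscle, 0 of 10 markers were called in nuclei (limma, 1.58% of all probes) and 0 of 10 in cytoplasm (1.44%), with none at an unadjusted p under 0.05 in either. EDL and soleus arrays of a fraction shared a slide. The differences, soleus minus EDL, ran from -0.41 to 0.32 in nuclei and from -0.27 to 0.42 in cytoplasm. The 95% confidence interval was -1.13 to 0.30 for Cldn5 in nuclei and -0.15 to 0.99 for Cdh5 in cytoplasm, and these fits do not show that the muscles are alike. In TA nuclei Vwf was lower than in EDL nuclei by its brighter probe, at -0.82 ± 0.18 (adjusted p = 0.00768, limma, 17.6% of probes called). No other marker was called. At an unadjusted p under 0.05 there were 4, where the share of all probes was not counted. The Vwf call was lost with the replicate block, and the count of calls was 2 without soleus cytoplasm 3, TA cytoplasm 1 or TA cytoplasm 2.

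In cytoplasm all 10 markers had a lower mean in TA than in EDL, from -0.16 for Eng to -0.89 for Cdh5, with a median of -0.64 against 0.10 over all probes. Of them 2 were called, Cdh5 at -0.89 ± 0.27 (adjusted p = 0.0408, limma) and Tek at -0.85 ± 0.22 (adjusted p = 0.0233), where 12.6% of all probes were, and 7 had an unadjusted p under 0.05. The share of all probes at that unadjusted threshold was not counted. The count of calls was 0 with the replicate block and without any of the EDL cytoplasm arrays or TA cytoplasm 2. It was 1 without EDL nuclei 1 or 2 or any of the soleus or TA nuclei, 3 without TA cytoplasm 3 and 4 without soleus cytoplasm 2. EDL and TA nuclei were on separate slides, and 2 of the 3 TA cytoplasm arrays were on other slides than EDL cytoplasm, so muscle and slide cannot be told apart in nuclei and only in part in cytoplasm.

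The markers followed each other across the 18 arrays, with Pearson's r from 0.15 to 0.98 and a median of 0.81 over the 45 pairs, a description in which the arrays share the step between fractions. With the group means removed, the 9 cytoplasm arrays gave r from -0.39 to 0.91 with a median of 0.26, and 29 of 45 pairs were above 0. Replicates spread more in cytoplasm, where the SD of a marker within a group had a median of 0.29, than in nuclei, where it was 0.08. The 5 genes outside all lists whose profile was most like the mean of the markers were Kdm5a (r = 0.979 over 18 arrays), Rps21 (0.978), Rpl17-ps5 (0.972), Osmr (0.971) and Nmi (0.971), out of 19925 genes with a median r of -0.07 and a 95th percentile of 0.87. None of these 5 is a known endothelial marker: Kdm5a encodes a histone demethylase, Rps21 a ribosomal protein, and Osmr the receptor for oncostatin M.

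Other genes of endothelial cells were read from lists, 166 genes in 14 lists together with markers of other cells, of which the number tested is given each time. Over the muscles 31.3% of all probes tested were higher in nuclei and 38.6% lower. Of the endothelial surface and metabolic genes, 23 of 28 were higher in nuclei over the muscles and 0 lower, with a median of 0.73. By muscle the counts were 10 and 0 of 28 in EDL, where 20.1% of all probes were higher and 26.6% lower. They were 5 and 1 of 29 in soleus, against 18.7% and 21.7%, and 23 and 1 of 29 in TA, against 19.2% and 33.5%. The 5 in soleus were near the background share. The largest differences were those of Rasip1, a regulator of vessel lumen formation (1.87 ± 0.10, SE), Robo4, a guidance receptor of vessels (1.79 ± 0.17), and Podxl, which coats the lumen side (1.67 ± 0.24). The transcription factors of the endothelium were higher in 8 of 8 cases, with a median of 1.42, led by Gata2 (2.08 ± 0.18), Sox18 (1.87 ± 0.20) and Sox17 (1.72 ± 0.16), though Gata2 was well above background on only 2 of the 9 cytoplasm arrays.

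Arterial and venous genes did not all go 1 way, where 31.3% of all probes were higher in nuclei over the muscles and 38.6% lower. Of 7 arterial genes 4 were higher and 3 lower (1 lower without scaling), with Sema3g, a secreted guidance factor, at 1.37 ± 0.30 and Gja4, a gap junction subunit, at 1.22 ± 0.17 among the first and Bmx, a kinase of arterial endothelium, at -1.27 ± 0.12 among the second. Of 5 venous genes 4 were higher and 1 lower (Aplnr, at -0.40, which turned to 0.38 without scaling), and the largest differences were Ackr1, a chemokine-binding receptor of venules (1.90 ± 0.10), Selp, which encodes P-selectin (1.43 ± 0.12), and Nr2f2, a factor of venous identity (1.15 ± 0.20). Of 4 lymphatic genes 1 was higher (0 with 75th percentile scaling, 3 without scaling), Flt4, the receptor for VEGF-C, at 0.71 ± 0.15 and well above background on 3 of 9 cytoplasm arrays.

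The ligands and partners of the marker receptors were measured as well, again beside 31.3% of all probes higher and 38.6% lower. Of 10 ligands 6 were higher in nuclei and 1 lower. Angpt2, the ligand that opposes Tek signalling, was at 1.48 ± 0.17, and Vegfa, the ligand of Kdr and Flt1 that muscle fibers themselves make, at 1.18 ± 0.12, whereas Bmp10, a ligand that binds Eng, was at -1.74 ± 0.13. Of 11 co-receptors and partners 10 were higher and 1 lower (Acvrl1, at -0.29, which turned to 0.49 without scaling), with Tjp1, a scaffold of tight junctions, at 2.23 ± 0.38, and the VEGF co-receptors Nrp1 and Nrp2 at 1.34 ± 0.17 and 1.30 ± 0.23. Tjp1 was well above background on 3 of 9 cytoplasm arrays.

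Markers of other cells moved in both directions, and their part in the values of the endothelial markers was not tested. The shares over all probes were 31.3% higher and 38.6% lower over the muscles. Of 12 genes of pericytes and smooth muscle, the cells that wrap vessels, 6 were higher in nuclei and 2 lower (11 and 1 without scaling), with Pdgfrb at 2.11 ± 0.20, Myh11 at 1.68 ± 0.10 and Cnn1 at -1.60 ± 0.10. Of 10 connective tissue genes 8 were higher and 0 lower, led by Postn (1.83 ± 0.20), Pdgfra (1.62 ± 0.23) and Fbn1 (1.15 ± 0.14). Pdgfra was well above background on 5 of the 9 cytoplasm arrays. Of 11 Schwann cell genes 8 were higher and 1 lower, led by Egr2 (1.94 ± 0.13) and Mbp (1.83 ± 0.13). Among 16 genes of the myofiber itself 14 were higher and 0 lower (median 0.70), but 5 were higher and 3 lower with 75th percentile scaling (median 0.48), when Acta1, Tnni2 and Tnnt3 turned to -0.35, -0.36 and -0.27. The largest differences there were Myh1 (1.30 ± 0.19), Ttn (1.27 ± 0.11) and Tnni1 (1.23 ± 0.50), and related myosin genes may share a signal.

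Macrophage and erythroid genes were lower in nuclei over the muscles, though not without scaling. Among all probes 31.3% were higher and 38.6% lower. Of 13 macrophage genes 0 were higher and 8 lower, with a median of -0.46 that turned to 0.10 without scaling (3 higher, 2 lower), and the largest differences were Aif1 (-1.41 ± 0.12), Adgre1 (-0.93 ± 0.18) and Lyz2 (-0.83 ± 0.12). Of 7 erythroid genes 0 were higher and 5 lower, with a median of -0.56 (-0.08 without scaling, 1 higher and 0 lower), with Hba-a2 at -0.88 ± 0.16, Epb42 at -0.87 ± 0.31 and Hbb-b2 at -0.64 ± 0.17 (0.13 without scaling), where near-identical globin genes may share a signal. Epb42 was well above background on 5 of the 9 cytoplasm arrays and 1 of the 9 nuclear arrays. Of 8 satellite cell genes 2 were higher and 2 lower, with Pax3 at -1.68 ± 0.20, Myod1 at -1.61 ± 0.25 and Megf10 at 1.44 ± 0.25. Pax3 was well above background on 2 of the 9 nuclear arrays. Myf5 and Calcr were well above background on no array. In TA alone the erythroid median was 0.31, with 2 of 7 genes higher and 2 lower, where 19.2% of all probes were higher and 33.5% lower.

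**Figure D5:**
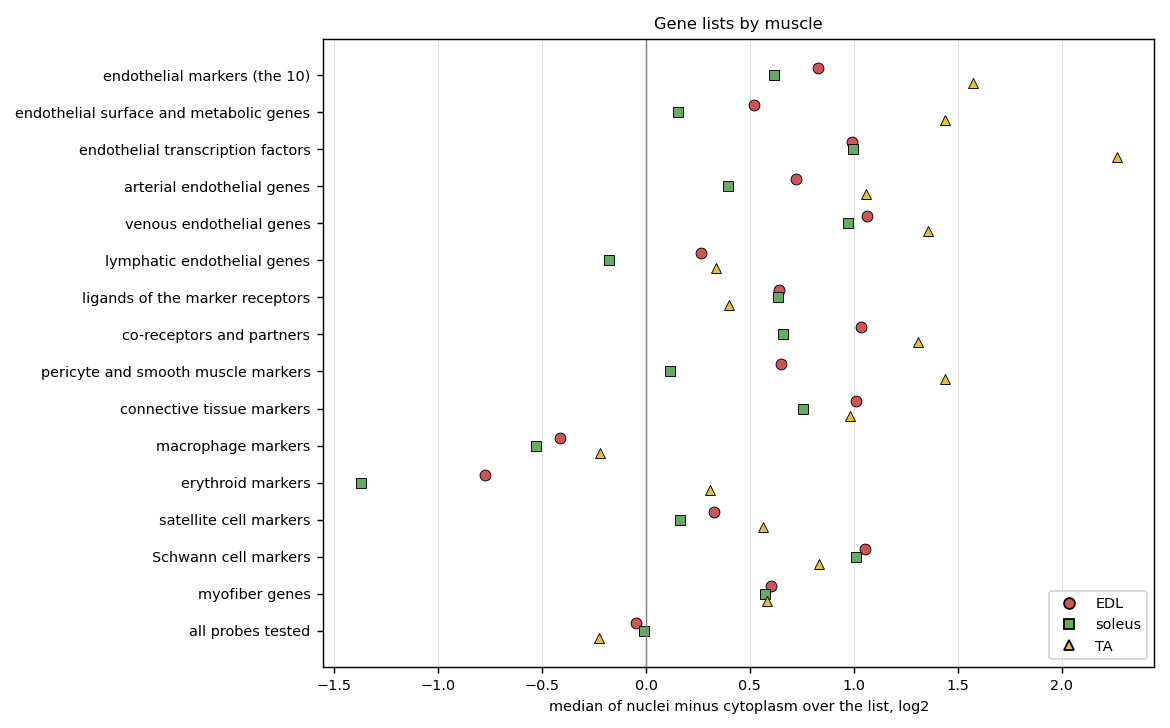
The plot shows the median of nuclei minus cytoplasm on the log2 scale (horizontal axis) over the tested genes of each list (vertical axis), with a circle for EDL, a square for soleus and a triangle for TA. The 10 endothelial markers lie at 0.83, 0.61 and 1.57, all probes tested at -0.05, -0.01 and -0.22, and macrophage genes below 0 in each muscle (over the muscles their median turns from -0.46 to 0.10 without scaling between arrays).

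Sums over lists were taken from quantile-normalised intensities with no spot left out as dim, since a missing value would lower a sum, and so differ in scale from the log2 values above. The summed intensity of the 10 markers ran from 4868 to 4963 in EDL cytoplasm and from 8916 to 9800 in EDL nuclei. In soleus it ran from 4580 to 8380 in cytoplasm and from 8162 to 8507 in nuclei, and in TA from 2393 to 4028 in cytoplasm and from 9660 to 11419 in nuclei. The sum overlapped between fractions in soleus only. The summed intensity of the pericyte and smooth muscle list ran from 6262 to 9696 in soleus cytoplasm and from 7603 to 7799 in soleus nuclei. In TA it ran from 4969 to 18415 in cytoplasm and from 22078 to 28177 in nuclei. That of the erythroid list ran from 19866 to 46770 in soleus cytoplasm and from 9501 to 10047 in soleus nuclei.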

How the data were processed

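The authors scanned 1-colour Agilent arrays and read them with Agilent Feature Extraction 10.7.3.1 (submitters' processing notes), and the intensity values deposited are the background-corrected processed signals of each spot, on a linear scale. A separate deposited table of quantile-normalised intensity values, on a linear scale, has values for 3687 spots, none of the 22 marker spots among them, and entered no result. Here, spots that were flagged as outliers or not positive and significant were left out, as were 3671 control spots, log2 intensities were quantile-normalised between arrays, and spots of a probe were averaged. A gene was represented by its brightest probe over the 18 arrays.

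Differences were fitted with limma 3.58.1 in R 4.3.3 on 6 group means (lmFit with moderated variances, 2-sided, prior degrees of freedom 3.30, residual 12), for probes with a value on at least 2 of 3 arrays of each group, with Benjamini-Hochberg adjustment over all probes tested and a threshold of 0.05. The study's methods name Significance Analysis of Microarrays, which was not run here. The fit was tested on simulated data. The number of arrays limits the precision. Labels name the samples biological replicates, but some mice gave several samples, so p-values measure the spread between these samples. Same-numbered EDL and soleus samples came from the same mice by their labels. Deviations of same-numbered samples, TA among them, correlated at -0.11 to 0.13 over 15 pairs and 35528 probes. The highest value was that of TA cytoplasm 3 and TA nuclei 3, which shared no mouse. The block was fitted as an alternative, since the methods use none.

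Named genes were the 10 markers, the 3 genes of each other list with the largest called difference over the muscles among those well above background on at least 1 array of each fraction, and the 5 genes outside the lists most like the markers. Aplnr, Acvrl1, Acta1, Tnni2, Tnnt3, Myf5 and Calcr fall outside this rule and were named after their values were seen. An item that the rule names is not reported here. The markers, lists and rules were chosen with earlier results of these data known. Alternatives were another scaling, no scaling, normexp background with an offset of 50, other filters, the mean of a gene's probes, slide and replicate blocks, nuclear arrays averaged to 1 sample, and leaving out each array. Figures were drawn with matplotlib.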

Additional observations from a re-analysis of the deposited data

Results flagged for a closer look

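The interaction of muscle and fraction was called for Tek (adjusted p = 0.0293), Cdh5 (adjusted p = 0.0433) and Pecam1 (adjusted p = 0.048, limma's moderated F test over all probes). These were 3 of the 10 markers, where 1.6% of all 40541 probes were called. They were picked out because the interaction itself was tested and passed. The count was 0 without any of the nuclear arrays and with the replicate block. It was also 0 with slide as a random block and with the nuclear arrays of a muscle averaged to 1 sample. Nuclei minus cytoplasm was 2.26, 2.34 and 1.56 in TA and 0.58, 0.65 and 0.10 in soleus for Tek, Cdh5 and Pecam1, with higher nuclear means in 3 of 3 muscles for each. The part of slide and of soleus cytoplasm 2 in these differences was not tested beyond the values given with them, and TA nuclei were on another slide than EDL and soleus nuclei.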

How the results depend on the processing

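Over the 3 muscles 10 of 10 markers were called higher in nuclei under each alternative except 2: 6 were with the nuclear arrays of a muscle averaged to 1 sample, and 8 with slide as a random block. With the nuclear arrays averaged, the counts were 0 in EDL, 0 in soleus, 5 in TA, 0 for TA against EDL in nuclei and in cytoplasm, and 0 for the interaction. With slide as a random block they were 3 in EDL, 1 in soleus, 0 for TA against EDL in nuclei, 1 in cytoplasm, and 0 for the interaction. Without scaling they were 10 in soleus, 3 for TA against EDL in nuclei, 1 in cytoplasm and 1 for the interaction, and requiring well above background gave 6 in soleus. Calls over all probes, in either direction, moved as well. As reported they were 20397 of 43669 in EDL and 17645 of 43620 in soleus. In soleus they were 27157 of 43620 without scaling and 13458 of 31787 with well above background required. With slide as a random block they were 5570 of 35528 in EDL and 3328 of 35528 in soleus. With the nuclear arrays averaged they were 3199 of 43669 in EDL, 1425 of 43620 in soleus and 4448 of 43699 in TA. TA against EDL in nuclei gave 2 with 75th percentile scaling, normexp or well above background required, and 0 with the replicate block or the mean of a gene's probes. The replicate block gave 0 for TA against EDL in cytoplasm and for the interaction, and 10, 7, 2 and 8 over the muscles and in EDL, soleus and TA in turn, where the calls lost were Cdh5 in EDL, Tek in soleus and Eng in TA, and it changed no other call between fractions. Over all probes, in either direction, the replicate block called 28171 of 40541, 19749 of 43669, 16915 of 43620 and 22570 of 43699 in the same order. Leaving out each array gave 10 to 10 over the muscles, 6 to 9 in EDL, 1 to 6 in soleus, 8 to 9 in TA, 0 to 0 for soleus against EDL, 1 to 2 for TA against EDL in nuclei, 0 to 4 in cytoplasm and 0 to 4 for the interaction. Calls over all probes were not counted array by array for these fits. Among the 12 marker probes, a difference called with or without scaling turned its sign without scaling for the second probe of Kdr (0.67 over the muscles, 1.06 in soleus) and the second probe of Vwf (0.094 over the muscles, 0.41 in soleus). Differences that were not called with quantile normalisation, those of Pecam1 and Emcn in soleus, of the second Kdr probe in each muscle and of the second Vwf probe in EDL, changed sign under some alternatives. Of these, Pecam1 and Emcn in soleus were called without scaling, at 1.34 and 1.28. The second Kdr probe was called without scaling in EDL and soleus, at 0.70 and 1.06. Scaling moved the median of all probes over the muscles from -0.08 to -0.30 (75th percentile) or 0.42 (none), and the markers stayed 1.06, 1.31 and 1.31 above it. The deposited values could not be run, since they hold no marker spot. The cause of these changes was not tested. The size that passed with 3 arrays a group depended on the gene: Eng passed at 0.41 in TA, and Cldn5 did not at 0.83 in soleus.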
